A study of Mus musculus with 12 samples.

Results

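The genes described here encode the core proteins of the spliceosome and the SR proteins. They were chosen by name: every gene whose symbol starts with Snrp, Snrnp, Sf3a, Sf3b, Prpf, Lsm, U2af or Srsf followed by a letter or number, with symbols ending in -ps left out. The rule found 72 of 51826 rows (71 names) in the sperm table and 79 of 23502 rows (70 names) in the testis table, with 70 names in both. It used no expression values. Lsmem1 and Lsmem2 match by name only, since they are named as leucine-rich membrane proteins, and Snrpert is annotated as a pseudogene. RNA-seq compared 3 WT with 3 Xap5l KO libraries of mature sperm, taken at P56 from the cauda epididymis, and 3 WT with 3 Xap5 cKO libraries of whole testes of P16 mice. Xap5l KO mice lacked Xap5l in all tissues after CRISPR/Cas9 editing. In Xap5 cKO mice a floxed Xap5 allele was recombined by Stra8-GFPCre, which acts in male germ cells, so the somatic cells of the testis kept Xap5. The floxed Xap5 and Xap5l KO mice were made on the C57BL/6J background. The labels call the controls WT, and they give no mouse for any library. The study names Xap5fl/Y mice as controls of Xap5 cKO males, and calls the testis controls of RNA-seq WT.

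As background, splicing is carried out by small nuclear ribonucleoprotein particles (snRNPs) that assemble anew on each intron. U1 binds the 5' splice site, U2AF and U2 recognise the 3' splice site and the branch point, and the tri-snRNP of U4, U6 and U5 then joins and is rearranged into the active enzyme. SR proteins bind exons and recruit these particles. Testis is known for a large amount of alternative splicing, and mature sperm carry out little or no transcription, so that their RNA is largely left from earlier stages.

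The sperm comparison was made to find genes that depend on Xap5l, and that of testes to follow the role of Xap5 in spermatogenesis. The study treats both as transcription factors and names a shared DNA motif. The letters CCCCGCCC were therefore looked for on either strand in the 250 bases upstream of each RefSeq start of each gene (GRCm38.p6). A gene with several starts counted as holding the letters if any of its windows did. Of the 71 names, 59 had a window, and 22 of these (37.3%) held the letters. The shares were 18% of all 27025 gene names with a window and 24.1% of those in the testis table. Among names lower in Xap5 cKO testes, as described below, 13 of 33 with a window (39.4%) held them, and among names tested and not lower 9 of 25 (36%). The median log2 fold change in Xap5 cKO testes was -0.24 for the 22 genes with the letters and -0.32 for 36 genes without them. The matches are a description of these windows and show no binding. Shown are the windows of Snrnp200, which had the largest fall of the genes listed in a single row, of Snrnp25, which fell without the letters, and of Srsf5, which holds them and did not pass the test. They lie at chr2:127208136-127208385, chr11:32205165-32205414 and chr12:80945249-80945498, all on the + strand, and capitals mark the letters.
Snrnp200: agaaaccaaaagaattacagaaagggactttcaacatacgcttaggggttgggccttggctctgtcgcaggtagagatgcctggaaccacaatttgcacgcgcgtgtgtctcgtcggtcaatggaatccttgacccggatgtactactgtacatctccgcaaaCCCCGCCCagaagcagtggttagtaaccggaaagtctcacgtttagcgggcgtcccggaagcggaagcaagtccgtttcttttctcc
Snrnp25: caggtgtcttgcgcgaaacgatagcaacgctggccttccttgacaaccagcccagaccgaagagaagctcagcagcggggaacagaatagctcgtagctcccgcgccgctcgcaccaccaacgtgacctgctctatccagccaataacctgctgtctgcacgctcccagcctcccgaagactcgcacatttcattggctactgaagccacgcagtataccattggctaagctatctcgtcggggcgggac
Srsf5: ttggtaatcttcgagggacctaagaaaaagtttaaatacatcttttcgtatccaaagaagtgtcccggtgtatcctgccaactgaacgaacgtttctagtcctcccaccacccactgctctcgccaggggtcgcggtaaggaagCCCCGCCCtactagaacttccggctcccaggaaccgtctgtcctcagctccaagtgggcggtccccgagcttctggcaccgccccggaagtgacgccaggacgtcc

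The testis libraries held between 32251198 and 36759054 counts and the sperm libraries between 38881197 and 52308452. Counts of Xap5 (Fam50a) were 819, 811 and 988 in the WT testis libraries against 673, 616 and 651 after Xap5 cKO (log2 fold change -0.33 ± 0.126 SE, adjusted p = 0.0495). Counts of Xap5l (Fam50b) were 574, 440 and 419 in the WT sperm libraries against 18, 23 and 8 after Xap5l KO, and in testes they were 532, 539 and 197 against 6, 0 and 7 after Xap5 cKO. In sperm, counts of Xap5 were 548, 705 and 689 in WT against 296, 487 and 649 after Xap5l KO (log2 fold change -0.76 ± 0.201 SE, adjusted p = 0.0393). Replicate 3 of WT testes stood apart: across genes its log2 CPM correlated at 0.928 to 0.933 with the Xap5 cKO libraries, and those of replicates 1 and 2 at 0.897 to 0.903. In sperm, mitochondrial genes took 10.5% to 27.4% of counts, and the TMM factor, which scales a library for its composition, was between 0.81 and 1.12 and lowest in replicate 1 of either genotype. CPM below is the count scaled to library size with this factor applied. Each table was tested alone with edgeR's quasi-likelihood test, and adjusted p-values were by the Benjamini-Hochberg method over all genes tested in that table. Genes with an adjusted p under 0.05 are said to have risen or fallen, fold changes are log2 values of mutant over WT, and errors of group means are SD with n = 3.

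In Xap5 cKO testes 45 of the 78 spliceosome and SR protein rows tested fell and 0 rose. Over all 16821 genes tested, 28.1% fell and 25% rose. The falls were modest, with a median log2 fold change of -0.33 over the members against -0.01 over all genes. The 45 rows belong to 39 of 69 names. At an unadjusted p under 0.05, 50 rows were lower and 0 higher, against 30.5% and 27.9% of all genes. DESeq2 called 47 lower and 0 higher, against 28.3% and 26% of all genes. At an adjusted p under 0.01, 32 rows were lower and 0 higher, against 21.3% and 17.5% of all genes. Lsmem1 was at 0 counts in every library and was not tested. In bulk testis, fewer cells of a type and less RNA per cell cannot be told apart.

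Together the 79 rows took 0.91%, 0.935% and 0.94% of the counts of the WT testes and 0.743%, 0.757% and 0.783% of the counts of the Xap5 cKO testes. Their summed level was 9233, 9427 and 9255 CPM in WT and 7450, 7496 and 7849 CPM in Xap5 cKO, with no overlap between the genotypes. Genes listed in several rows enter these shares and sums with every row, so reads counted in several rows would be added repeatedly. In the rows singly, every Xap5 cKO library was below every WT library for 48 rows, against 32.4% of all genes, and above for 0 rows, against 29.9%. The groups overlapped in the other rows. In sperm the members took 0.142%, 0.218% and 0.227% of WT counts and 0.134%, 0.195% and 0.208% of Xap5l KO counts. These shares are not set against those of testes, where mitochondrial genes held 0% of counts and some genes have several rows.

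**Figure D1:**
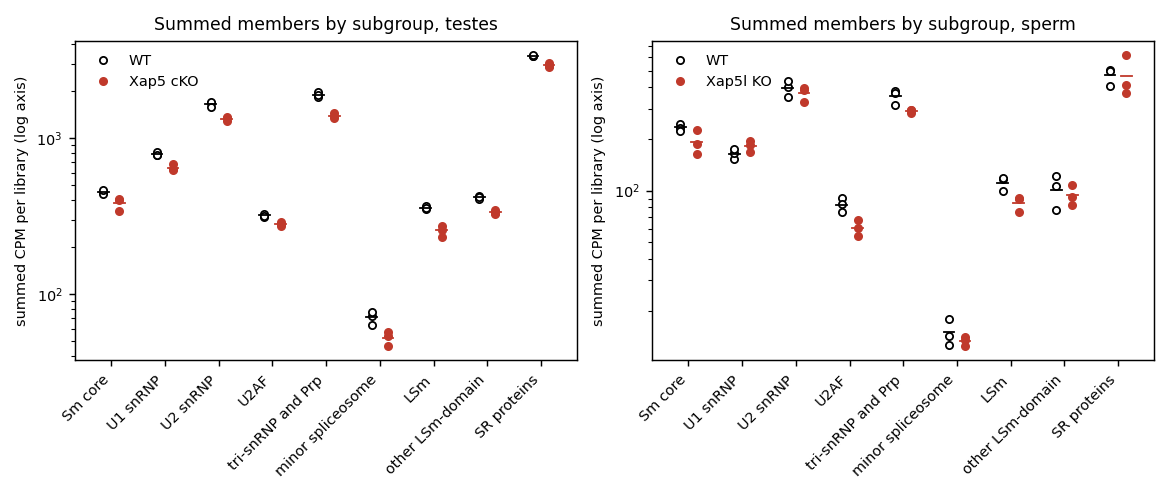
Summed level of the spliceosome and SR protein rows of each class, in CPM on a log axis, in testes (left) and sperm (right); each point is 1 library (open, WT; filled, mutant) and short lines are means of 3 libraries. In testes the SR proteins summed to 3336 to 3391 CPM in WT and 2862 to 3026 CPM in Xap5 cKO, and the Xap5 cKO libraries lie below the WT libraries in all 9 classes, while in sperm several classes overlap. Genes listed in several rows, such as Srsf1 and Srsf3 in testes, enter the sums with every row.

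Levels of marker genes of the cell types of the testis also differed between the genotypes. The summed level of 10 leptotene and zygotene markers was 2769 to 3293 CPM in WT and 1311 to 1749 CPM in Xap5 cKO, and all 10 fell. That of 10 pachytene markers was 939 to 1911 CPM in WT and 185 to 252 CPM in Xap5 cKO, with 9 fallen and Adam3 at 0 in Xap5 cKO. That of 10 spermatogonial markers was 809 to 868 CPM in WT and 497 to 538 CPM in Xap5 cKO, with 8 fallen and 1 risen. Sertoli markers stood at 4363 to 4799 CPM in WT and 7514 to 9177 CPM in Xap5 cKO, with 9 of 11 rows risen, Leydig markers at 193 to 336 and 389 to 737 CPM, myoid markers at 506 to 661 and 731 to 795 CPM, and leukocyte markers at 74.1 to 108 and 157 to 211 CPM. Prm2, a defining marker of late spermatids, was at 0 in every testis library, and the summed spermatid markers were at 17.9 to 36.4 CPM in WT and 10.4 to 12.7 CPM in Xap5 cKO. The part of these shifts in the falls of the spliceosome genes was not tested.

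The tri-snRNP and Prp proteins held 3 of the 6 largest falls. Of their 14 rows 9 fell. Snrnp200, the helicase that unwinds U4 from U6, lies on chromosome 2 from 127208386 to 127240451 (GRCm38, + strand), downstream of the window printed above. Its level was 312, 345 and 314 CPM in WT testes and 176, 157 and 189 CPM in Xap5 cKO testes, and the groups were far apart. This was a log2 fold change of -0.89 ± 0.0772 (SE, adjusted p = 3.12e-05), or a fall of 46.2%. Prpf3, a U4/U6 protein, was at 79.4, 87.3 and 77.0 CPM in WT and 43.3, 47.1 and 46.1 CPM in Xap5 cKO (-0.84 ± 0.0818, adjusted p = 5.47e-05). Prpf38a, needed for activation of the spliceosome, was at 64.0, 63.2 and 61.7 CPM in WT and 30.7, 38.6 and 36.9 CPM in Xap5 cKO (-0.83 ± 0.101, adjusted p = 0.000158). All these libraries separated by genotype. Prpf8, the scaffold at the heart of the spliceosome and the most abundant member of this class per kilobase of exon, was at 500, 521 and 513 CPM in WT and 343, 310 and 349 CPM in Xap5 cKO (-0.61 ± 0.0592, adjusted p = 5.09e-05). Snrnp40, a U5 protein listed in 2 rows, fell in the first (-0.78, adjusted p = 0.0018) and did not pass in the second (-0.35), and the sum of its rows stood at -0.59 (adjusted p = 0.000138). Log2 fold changes of -0.41 to -0.28 were seen for Prpf18, which acts in the second step, for the U4/U6 protein Prpf31, for the U5 protein Prpf6 and for Snrnp27. Of the 6 fits that left out a library, Snrnp27 passed in 2, Prpf6 in 5 and the others in all 6. Prpf19, Prpf4, Prpf38b and the kinase Prpf4b did not pass, with log2 fold changes from -0.14 to 0.01. Prpf4b was at 154, 166 and 158 CPM in WT and 160, 155 and 167 CPM in Xap5 cKO, so its groups overlapped throughout, and its 95% interval of -0.12 to 0.14 leaves little room for a fall like that of Snrnp200.

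**Figure D2:**
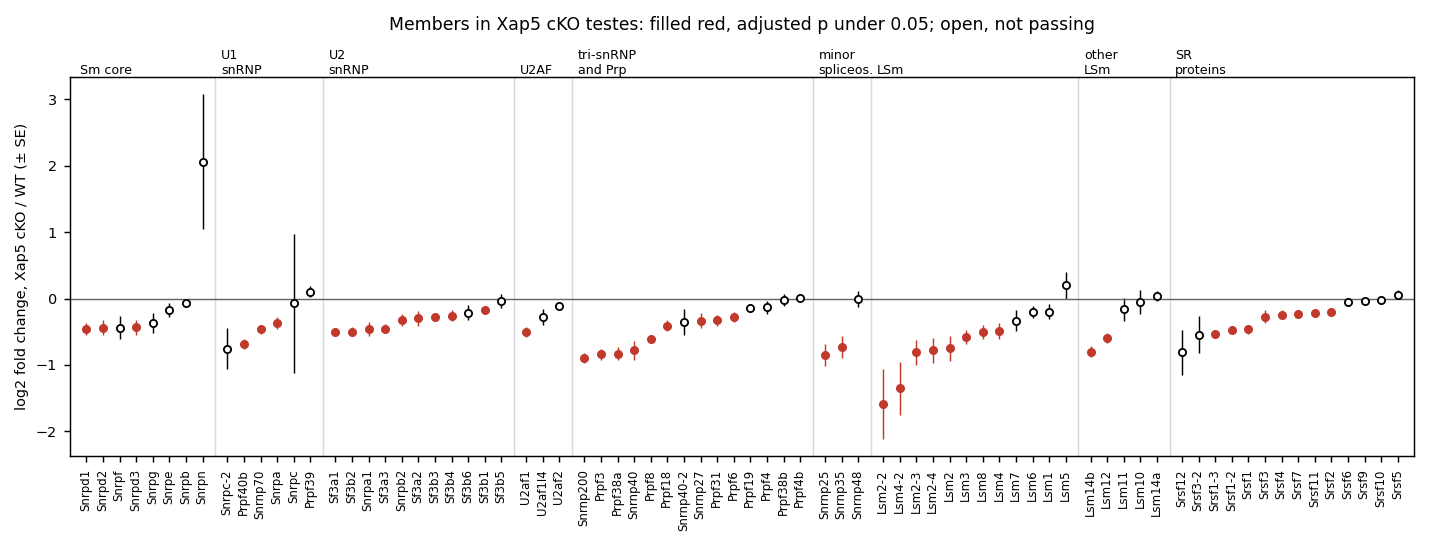
Log2 fold change of Xap5 cKO over WT testes (vertical axis) for the tested spliceosome and SR protein rows reported here, arranged by class; bars are ± SE and filled red points passed an adjusted p under 0.05. Most rows lie below 0, with Snrnp200 at -0.89, while Srsf5, Srsf6, Srsf9 and Srsf10 lie near 0, and Snrpn, at 2.06 with a wide error, did not pass.

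Of the 11 U2 proteins, 9 fell. Sf3a1 and Sf3b2, subunits of the SF3A and SF3B complexes that hold U2 at the branch point, fell by 0.50 each on the log2 scale. Sf3a1 was at 194, 198 and 185 CPM in WT and 140, 129 and 138 CPM in Xap5 cKO. Sf3b1, the subunit that clamps the branch point and the most abundant U2 protein per kilobase, was at 509, 513 and 476 CPM in WT and 451, 414 and 461 CPM in Xap5 cKO. Its groups did not overlap, but the fall was small (-0.18 ± 0.0599, adjusted p = 0.0333). It passed in 2 of the 6 fits that left out a library, and not without WT replicate 1 or 2 or Xap5 cKO replicate 1 or 2, where the adjusted p was 0.0907 to 0.162. The small subunits Sf3b5 (-0.03) and Sf3b6 (-0.21) did not pass. Among the U2AF proteins, U2af1, which reads the AG at the end of the intron, fell, from 62.8, 62.4 and 65.0 CPM in WT to 42.8, 46.0 and 45.6 CPM in Xap5 cKO (-0.50 ± 0.0767, adjusted p = 0.00057). Its partner U2af2, which binds the polypyrimidine tract and was the most abundant U2AF gene per kilobase, was at 228, 242 and 231 CPM in WT and 216, 208 and 224 CPM in Xap5 cKO. These groups did not overlap, but the difference did not pass (-0.11 ± 0.0562, adjusted p = 0.125). U2af1l4, a paralog of U2af1, was at 23.1, 23.6 and 22.0 CPM and at 21.3, 18.1 and 17.5 CPM (-0.27 ± 0.123, adjusted p = 0.0905).

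For U1, 3 of 7 rows fell. Snrnp70, which binds the first stem of U1 RNA, was at 189, 213 and 188 CPM in WT and 136, 142 and 151 CPM in Xap5 cKO (-0.46 ± 0.071, adjusted p = 0.000583). Snrpa, which binds the second stem and led the class per kilobase, was at 92.9, 88.4 and 87.7 CPM in WT and 61.6, 78.0 and 69.6 CPM in Xap5 cKO (-0.36 ± 0.0922, adjusted p = 0.00902). Prpf40b, a U1-associated protein, was at 145, 142 and 123 CPM in WT and 85.5, 85.7 and 83.7 CPM in Xap5 cKO (-0.69 ± 0.075, adjusted p = 9.15e-05). Prpf39, also U1-associated, was at 0.10 and did not pass.

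Of the Sm proteins, which form the ring on U1, U2, U4 and U5 RNA, 3 of 8 fell: Snrpd1, Snrpd2 and Snrpd3, by 0.45, 0.44 and 0.43 on the log2 scale. Snrpd1 was at 53.9, 52.3 and 53.4 CPM in WT and 35.5, 39.8 and 41.2 CPM in Xap5 cKO, and the genotypes were well separated. Snrpf and Snrpg, at -0.44 and -0.37, had wider errors and did not pass (adjusted p = 0.0559 and 0.0608), although every Xap5 cKO library was below every WT library. Snrpb, the most abundant Sm gene per kilobase, was at 184, 181 and 188 CPM in WT and 161, 185 and 180 CPM in Xap5 cKO (-0.07 ± 0.0649, adjusted p = 0.395). Its paralog Snrpn, an imprinted gene best known from brain, had counts of 27, 25 and 1 in WT against 14, 37 and 159 in Xap5 cKO. A single Xap5 cKO library was high, the groups overlapped and the change did not pass (2.06 ± 1.02, adjusted p = 0.119). Snrpn shares exons with Snurf and Gm38393 on its strand, so reads can be divided among them.

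The minor spliceosome removes a rare class of introns. Of its 3 members in the list, Snrnp25 and Snrnp35 fell. Snrnp25 was at 20.8, 22.3 and 17.2 CPM in WT and 10.3, 13.0 and 10.2 CPM in Xap5 cKO (-0.85 ± 0.163, adjusted p = 0.00209). Snrnp35, which binds U11 RNA as Snrnp70 binds U1, was at 23.7, 27.5 and 18.5 CPM in WT and 13.1, 15.3 and 13.7 CPM in Xap5 cKO (-0.72 ± 0.165, adjusted p = 0.00524). For both, WT replicate 3 was the lowest WT library and still above every Xap5 cKO library. Snrnp48, at 27.3, 27.3 and 28.0 CPM in WT and 23.1, 29.2 and 29.6 CPM in Xap5 cKO, did not pass (-0.01 ± 0.12, adjusted p = 0.934).

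**Figure D3:**
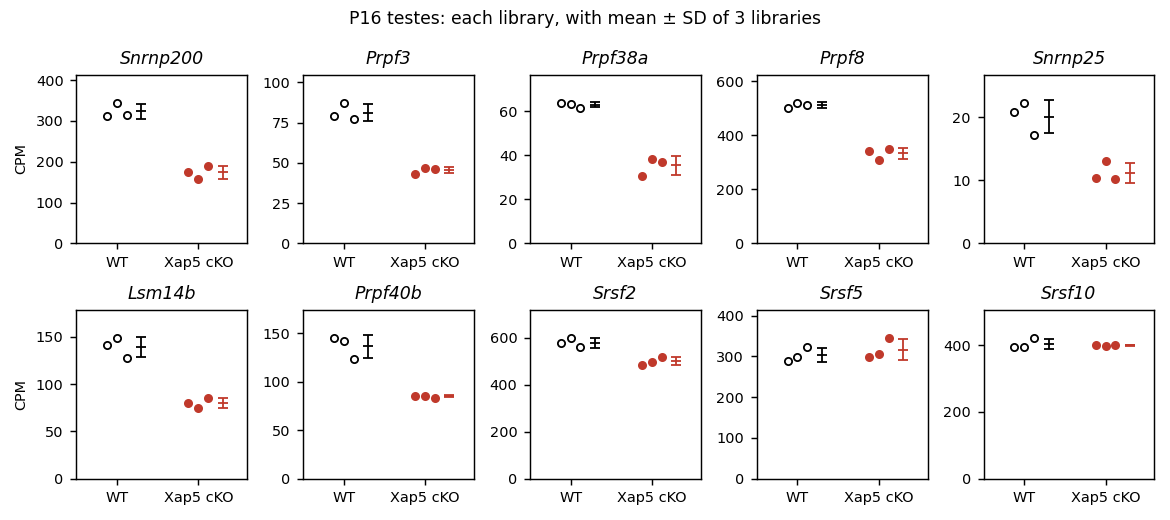
Level in CPM, on linear axes from 0, of 10 spliceosome and SR protein genes in each testis library (open, WT; filled, Xap5 cKO), with mean ± SD of 3 libraries beside the points. Snrnp200 stood at 312 to 345 CPM in WT and 157 to 189 CPM in Xap5 cKO, whereas the libraries of Srsf5 and Srsf10 overlapped between the genotypes.

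LSm proteins form the ring on U6 RNA and, with Lsm1, a ring that promotes mRNA decay in the cytoplasm. Of 12 rows of these genes 8 fell, 4 of them rows of Lsm2 and 2 of Lsm4. Lsm3 was at 56.2, 47.0 and 52.4 CPM in WT and 31.7, 36.6 and 36.0 CPM in Xap5 cKO (-0.58 ± 0.103, adjusted p = 0.00133), and Lsm8, which sets the nuclear ring apart, fell by 0.50 on the log2 scale. Lsm4, the most abundant per kilobase, was at 67.3, 71.8 and 72.7 CPM in WT and 41.1, 54.9 and 54.8 CPM in Xap5 cKO (-0.49 ± 0.117, adjusted p = 0.00651). Lsm1, Lsm5, Lsm6 and Lsm7 did not pass, at values from -0.34 to 0.20, so the member that marks the cytoplasmic ring was among those that did not pass. Of the other 5 LSm-domain genes 2 fell. Lsm14b, an RNA-binding protein of cytoplasmic granules, was at 142, 149 and 128 CPM in WT and 79.8, 74.8 and 85.9 CPM in Xap5 cKO (-0.80 ± 0.0813, adjusted p = 6.58e-05). Its paralog Lsm14a was at 155, 164 and 186 CPM in WT and 183, 169 and 169 CPM in Xap5 cKO (0.04 ± 0.0775, adjusted p = 0.666). Lsm12 fell as well (-0.59), while Lsm10 and Lsm11, which belong to the U7 particle that processes histone mRNA, did not pass (-0.05 and -0.16). Lsm11 was at 17.8, 24.9 and 20.0 CPM in WT and 18.6, 22.0 and 15.5 CPM in Xap5 cKO.

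The testis table lists 6 genes of the set in more than 1 row under the same name, with a number added, and reads of such a gene may have been split between its rows or counted in several. For Snrpc, the U1 protein next to the 5' splice site, counts of the first row were 76, 591 and 1263 in WT against 729, 23 and 917 in Xap5 cKO, and those of the second 2668, 2284 and 1360 against 783, 1762 and 999. Neither row passed, but their sum fell (-0.57, adjusted p = 0.000749). Only 2 rows fell by more than 2-fold, against 10.9% of all genes, and 0 rose by as much, against 4.15%. These were the second row of Lsm2 (counts of 175, 496 and 465 against 102, 208 and 42, log2 fold change -1.59 ± 0.532, adjusted p = 0.0315) and that of Lsm4 (760, 752 and 516 against 94, 349 and 308, -1.35 ± 0.399, adjusted p = 0.0182). The former did not pass without WT replicate 2 or 3 or Xap5 cKO replicate 1 or 3 (adjusted p = 0.0639 to 0.101), nor the latter without WT replicate 1 or 2 (adjusted p = 0.0544 and 0.0529). Neither row passed at an adjusted p under 0.01, where 9.65% of all genes were lower and 2.9% higher by as much. With the rows of each gene summed, no member passed 2-fold, since Lsm2 stood at -0.91 and Lsm4 at -0.64. Then 41 genes fell, against 29% of all genes, while 10.9% of all genes fell past 2-fold.

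Of 14 rows of SR proteins 8 fell. The class median was -0.24, against -0.30 for U2, -0.34 for the tri-snRNP and Prp proteins and -0.54 for the LSm proteins. In the last value Lsm2 counts with 4 rows and Lsm4 with 2. With rows summed, 4 of 8 LSm genes fell and their median was -0.42. Srsf1, the founding member of the family, was at 227, 228 and 230 CPM in WT and 160, 157 and 178 CPM in Xap5 cKO (-0.47 ± 0.0626, adjusted p = 0.000276), and its other 2 rows fell by 0.47 and 0.53 on the log2 scale. Srsf2, the most abundant per kilobase, was at 578, 600 and 559 CPM in WT and 486, 497 and 520 CPM in Xap5 cKO (-0.21 ± 0.0528, adjusted p = 0.00871, and 0.0622 without Xap5 cKO replicate 1). Its exons overlap those of Mettl23 and Mfsd11 on the other strand. Srsf3, Srsf4, Srsf7 and Srsf11 fell by between 0.22 and 0.27 on the log2 scale, while the second row of Srsf3 (-0.54) did not pass. The first row of Srsf3 passed in 2 of the 6 fits that left out a library, and its groups overlapped. Srsf4 passed in 3 of these fits, and Srsf7 and Srsf11 in 5 each. Srsf5, Srsf6, Srsf9 and Srsf10 did not pass, with overlapping groups and 95% intervals inside -0.18 to 0.22. Srsf5, whose window is printed above, was at 288, 299 and 324 CPM in WT and 298, 305 and 345 CPM in Xap5 cKO (0.06 ± 0.0725, adjusted p = 0.52). Srsf10, a splicing repressor when dephosphorylated, was at 395, 396 and 421 CPM in WT and 400, 397 and 401 CPM in Xap5 cKO. Srsf12, the least abundant, was at 3.87, 3.07 and 2.20 CPM in WT and 1.37, 1.58 and 2.25 CPM in Xap5 cKO and did not pass (-0.81 ± 0.336, adjusted p = 0.0693), but did without WT replicate 3 or Xap5 cKO replicate 3 (adjusted p = 0.0342 and 0.0447). Lsmem2, with counts of 36, 20 and 5 against 18, 20 and 18, did not pass (-0.05).

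Of the 45 rows that fell, 32 passed in each of the 6 fits that left out a library. Without replicate 3 of WT testes 45 rows fell, against 28.2% of all genes, and 3 of them by more than 2-fold, against 11.4%. None rose in that fit, against 25.2% of all genes and 5.14% past 2-fold. Of all 71 names 17 share exonic bases with a gene on the other strand. The use of strand in counting was not stated, so reads of the 2 genes within the shared bases cannot be told apart.

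Genes that work with these proteins were examined as lists, to be read against the 28.1% of all genes that fell and the 25% that rose. Of 65 rows of other spliceosome components 39 fell and 4 rose, and of 21 rows of snRNP assembly factors 13 fell. In the latter, Ddx20, a helicase of the SMN complex that loads Sm rings, had counts of 3075, 3159 and 3177 in WT against 1341, 1427 and 1482 in Xap5 cKO (-1.05 ± 0.0739), and Ncbp1, the large subunit of the cap-binding complex, stood at -0.999. Of 28 rows of SR-related and exon junction proteins 16 fell, led by Sugp2 at -1.36, and 2 rose, Srrm4 at 1.38 and Rbm10 at 0.64. Among 27 rows of hnRNP proteins 14 fell and 6 rose, with Hnrnpll at -0.79 and Rbmx at 0.52. Among 30 rows of other splicing regulators 14 fell, with Khdrbs3 at -2.22 and Ptbp2 at -1.33, and 5 rose, with Mbnl1 at 0.82. The kinases that phosphorylate SR proteins moved in both directions: of 8 rows, both rows of Srpk1 fell, at -0.79 and -0.97, while Clk1 at 0.51 and Srpk2 at 0.36 rose. The median log2 fold changes were -0.32 for other spliceosome components, -0.51 for assembly factors and 0.01 for the SR kinases, against -0.01 for all genes.

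In Xap5l KO sperm 2 of 70 tested spliceosome and SR protein rows fell and 0 rose. This was 2.86% of the members, against 3.07% of 20945 genes fallen and 9.02% risen. No member passed 2-fold, against 1.27% of all genes lower and 7.59% higher. At an unadjusted p under 0.05, 11 members were lower and 1 was higher, against 14.9% and 18.6% of all genes, and 0 of these passed 2-fold. At an adjusted p under 0.01 no member and 0% of all genes passed. DESeq2 called 3 lower and 1 higher, against 5.46% and 14% of all genes, and none past 2-fold, against 1.66% and 10.2%. The median was -0.26 over the members and -0.08 over all genes. By class, medians ran from -0.44 for the Sm proteins and -0.38 for the LSm proteins to 0.35 for the U1 proteins, of which 4 of 6 were positive. Every Xap5l KO library was below every WT library for 18 rows and above for 2, against 19.2% of all genes in either direction. Errors were larger than in testes, with a median SE of 0.233 against 0.0941, and for 50 rows the 95% interval lay within a 2-fold change either way.

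**Figure D4:**
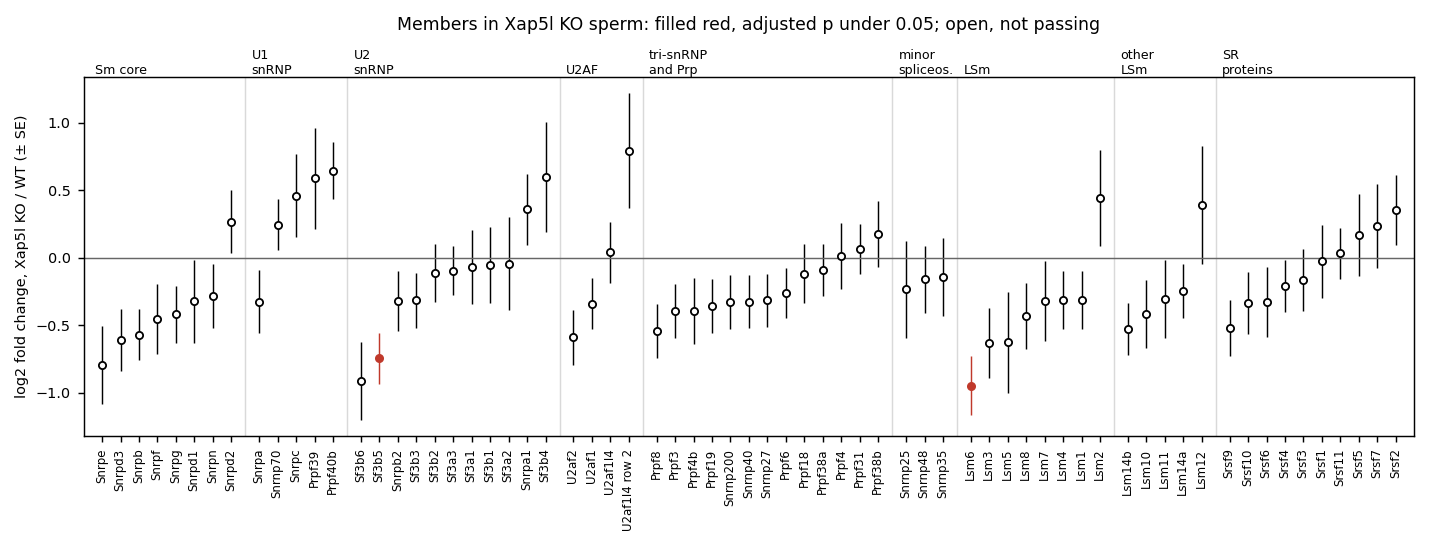
Log2 fold change of Xap5l KO over WT sperm (vertical axis) for the tested spliceosome and SR protein rows reported here, arranged by class; bars are ± SE and filled red points passed an adjusted p under 0.05. Lsm6 at -0.95 and Sf3b5 at -0.75 are the 2 filled points.

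Lsm6, a subunit of both LSm rings, was at 23.1, 35.4 and 31.7 CPM in WT sperm and 14.4, 16.7 and 15.7 CPM in Xap5l KO sperm (-0.95 ± 0.217, adjusted p = 0.0267). Sf3b5, the smallest SF3B subunit, was at 27.3, 25.9 and 31.8 CPM in WT and 17.4, 17.8 and 15.5 CPM in Xap5l KO (-0.75 ± 0.191, adjusted p = 0.0367). The groups did not overlap in either gene. Both calls were lost without WT replicate 2 or 3 and without Xap5l KO replicate 1 or 2, when 0 members were lower. Calls then became rare in the whole table, with 0.0046%, 0.0046%, 0.329% and 0.00932% of all genes lower and 0.0046%, 0.0046%, 2.24% and 0.00466% higher in these 4 fits. Without WT replicate 1, 5 members were lower and 1 higher, against 5.49% and 10.2% of all genes. Without Xap5l KO replicate 3, 2 members were lower and 4 higher, against 4.54% and 14%, and Sf3b5 did not pass (adjusted p = 0.0561).

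Several values turned on Xap5l KO replicate 3. Sf3b4, the most abundant U2 protein per kilobase in sperm, was at 35.8, 31.5 and 44.7 CPM in WT and 74.3, 74.0 and 21.2 CPM in Xap5l KO, so that 2 Xap5l KO libraries were above every WT library and the other below. It did not pass (0.60 ± 0.407, adjusted p = 0.318) but stood at 1.07 without Xap5l KO replicate 3 (adjusted p = 0.00974). In the same library Srsf2 was high, at 119 CPM, with 63.6 and 71.1 CPM in replicates 1 and 2 and 63.4, 68.9 and 66.3 CPM in WT (0.35 ± 0.26, adjusted p = 0.358), and Srsf5 was at 143 CPM against 61.6 and 79.2. Lsm12, the most abundant of the other LSm-domain genes per kilobase, varied in WT itself, at 12.5, 24.7 and 42.2 CPM, and was at 35.6, 49.5 and 19.3 CPM in Xap5l KO.

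Prpf40b was at 13.4, 10.3 and 9.52 CPM in WT and 16.9, 19.2 and 15.8 CPM in Xap5l KO. Every Xap5l KO library was above every WT library, but the difference did not pass (0.65 ± 0.21, adjusted p = 0.07), while DESeq2 gave an adjusted p of 0.0369. Without WT replicate 1 or Xap5l KO replicate 3 it passed (adjusted p = 0.0394 and 0.0359). The other row above in every library was Snrnp70 (0.25). Prpf8 was at 78.5, 93.9 and 95.1 CPM in WT and 55.6, 65.9 and 62.4 CPM in Xap5l KO (-0.54 ± 0.2, adjusted p = 0.0951). U2af2 was at 56.8, 70.0 and 63.7 CPM in WT and 36.8, 42.5 and 47.3 CPM in Xap5l KO (-0.59 ± 0.201, adjusted p = 0.0778), and U2af1 at 10.6, 12.3 and 12 CPM and at 9.28, 9.39 and 8.89 CPM (-0.34). Snrpb was at 36.8, 34.5 and 43.2 CPM in WT and 26, 24.9 and 26.1 CPM in Xap5l KO (-0.57 ± 0.189, adjusted p = 0.0726). In all of these the groups did not overlap and the test was not passed. Lsm14b showed the same, at 21.1, 25.1 and 27.3 CPM in WT and 17.0, 16.8 and 17.3 CPM in Xap5l KO (-0.53 ± 0.19, adjusted p = 0.0901, and 0.0489 without WT replicate 1).

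The leading genes of the remaining classes overlapped between the genotypes. Snrpf, the most abundant Sm gene per kilobase in sperm, was at 19.3, 21.1 and 24.8 CPM in WT and 20.0, 17.3 and 10.4 CPM in Xap5l KO (-0.45), and Snrpn at 29.9, 18.4 and 23.9 CPM and at 20.0, 16.5 and 22.9 CPM (-0.28). Snrpf shares exonic bases with genes on the other strand, among them Ccdc38, so its level may include reads of these. Snrpa was at -0.33, Lsm4 at -0.31, Snrnp35 at -0.14 and Snrnp200 at -0.33, and none passed. U2af1l4, listed in 2 rows, was at 0.04 and 0.79, neither passing. Lsm11 and Lsmem2 had few reads, at 1.34 to 2.18 CPM and 0.475 to 0.858 CPM. Srsf12 had counts of 0, 9 and 0 in WT against 10, 17 and 11 in Xap5l KO, and Snrpert 0, 0 and 2 in WT against 0 in each Xap5l KO library. Neither reached the filter on low counts, and neither was tested.

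Markers of other cells also differed in level between the sperm libraries. Summed leukocyte markers were at 740 to 802 CPM in WT and 139 to 484 CPM in Xap5l KO, with 1 of 8 tested rows fallen, and epididymal markers at 5934 to 8253 and 4470 to 6193 CPM. Pachytene markers were at 1390 to 2315 CPM in WT and 2733 to 3378 CPM in Xap5l KO, with 5 of 10 risen, and spermatid markers at 24758 to 51059 and 27174 to 48376 CPM, with 3 of 10 risen. Summed Sertoli markers were at 666 to 802 and 1077 to 1354 CPM, nearly all of it Clu, at 622, 703 and 737 CPM in WT and 1311, 1256 and 1046 CPM in Xap5l KO. The median over the 8 tested rows was -0.62, 1 fell, and Fshr was at 0 in Xap5l KO. The part of these differences in the values of the spliceosome genes was not tested.

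In the lists of related genes, Xap5l KO sperm showed calls in both directions, to be read against the 9.02% of all genes that rose and the 3.07% that fell. Of 18 snRNP assembly factors 4 rose and 1 fell: Ddx20 had counts of 1040, 1355 and 1157 in WT against 3264, 6179 and 4150 in Xap5l KO (1.64 ± 0.236, adjusted p = 0.0122), Coil, the scaffold of Cajal bodies, stood at 1.38, and Phax, an export factor for snRNA, fell (-0.77). Of 7 SR kinases 3 rose, among them Clk3 at 1.09 and Clk4 at 0.93. Of 61 other spliceosome components 2 rose, Txnl4b and Ctnnbl1, and 6 fell, among them Zmat2 at -0.90 and Ppil1 at -0.82. Of 25 other splicing regulators 2 rose, Celf6 at 2.11 and Rbmxl2 at 1.36. Among 27 SR-related and exon junction proteins Rbm8a alone was called, at -0.67, and among 26 hnRNP proteins Ptbp3 alone, at -0.84.

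Both comparisons tested 68 member genes, taking a single row for each. They share no libraries, and their tables were normalized separately, so levels are not compared between tissues. The log2 fold change was negative in both for 46 genes, positive in sperm and negative in testes for 16, negative in sperm and positive in testes for 4 and positive in both for 2. Negative values were the majority in each tissue alone, at 72 of 78 tested rows in testes and 50 of 70 in sperm. The count of 46 therefore does not by itself show a link between the comparisons. The same count over all genes was not made. Snrnp200 was at -0.89 in testes and -0.33 in sperm, Prpf8 at -0.61 and -0.54, and Prpf40b at -0.69 and 0.65. Lsm6 was at -0.20 in testes, where it did not pass, and -0.95 in sperm, and Sf3b5 at -0.03 and -0.75. The difference between the tissues was not tested, since age, tissue and targeted gene all differ.

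**Figure D5:**
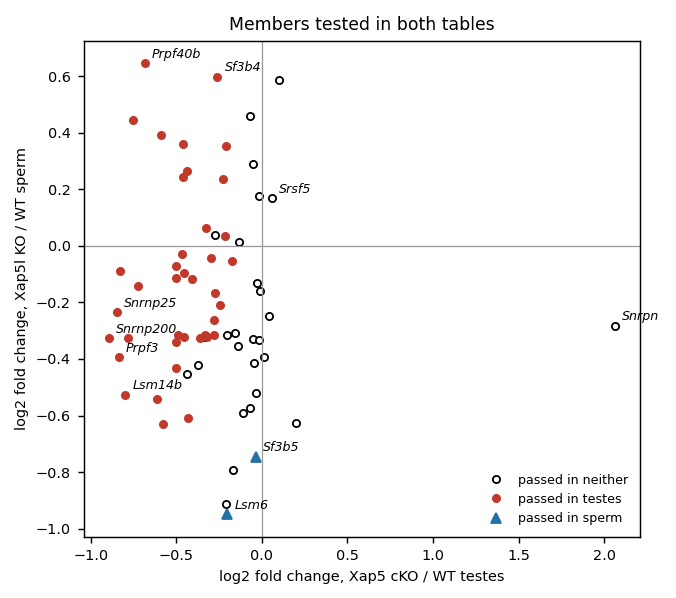
Log2 fold change of 68 spliceosome and SR protein genes in Xap5 cKO testes (horizontal axis) against that in Xap5l KO sperm (vertical axis), with each point 1 gene, red where it passed in testes and a blue triangle where it passed in sperm. Of the 68 genes 46 lie where both values are negative, and most were negative in each tissue taken alone. Prpf40b lies at -0.69 in testes and 0.65 in sperm, and Snrpn, which did not pass, lies far to the right at 2.06.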

How the data were processed

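RNA-seq libraries were grouped by their labels into WT and Xap5l KO sperm and WT and Xap5 cKO testes, 3 each. Replicates are described as biological, but no mouse is named for a library. The p-values of the genotype difference therefore rest on the variation between these libraries, which may not equal that between mice. Poly(A) RNA was sequenced as paired-end reads, which the authors mapped to GRCm38/mm10 with HISAT2 2.1.0; they deposited whole-number counts per gene, not normalized, in 1 table per tissue. Per the submitters' processing notes, FastQC 0.11.2, Trimmomatic 0.36 and DESeq2 1.12.4 were also used. The counting tool, the treatment of reads mapping to several genes and the use of strand are not given in the sources used here. The 250-base upstream windows came from RefSeq and gene positions from the GENCODE annotation of GRCm38.

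The members and lists were chosen with earlier results of these data known. Each table was filtered with filterByExpr, normalized by TMM and fitted whole with edgeR 4.0.16, with genotype as the only term. SE was the log2 fold change divided by the square root of the F statistic, and 95% intervals used the t distribution with the degrees of freedom of the fit. With 3 libraries against 3, an exact permutation test cannot reach 0.05, so the fits across genes were used. Genes named with values in every library were up to 6 members with the largest fall or rise among those passing with at least 5 CPM in either genotype, members past 2-fold, the member highest per kilobase of merged exons in each class, and set pairs of paralogs. Others named to show a class were chosen after their values were seen. Alternatives were other scalings and filters, DESeq2 1.42.0, a replicate block, an adjusted p under 0.01 and leaving out each library. Summing rows of a gene, and leaving out mitochondrial and the 10 most abundant other genes of sperm, were chosen after seeing the data. The tests were checked on simulated data. A gene that enters the counts is not reported here by itself. R 4.3.3, Python 3.11.15, pandas 2.3.3 and matplotlib 3.10.9 were used.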

Additional observations from a re-analysis of the deposited data

How the results depend on the processing

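In testes the number of members lower was between 36 and 47 under the alternatives other than an adjusted p under 0.01, which left 32, and none was higher under any. Of all genes, 23.6% to 29.5% were lower under these alternatives and 21.3% at an adjusted p under 0.01. Between 17.5% and 27.1% of all genes were higher. The 2 rows lower by more than 2-fold became 0 with the rows of a gene summed and 0 at an adjusted p under 0.01, and between 0 and 3 with a library left out. Of all genes, 10.9%, 9.65% and 9.84% to 11.4% were lower by as much in these fits. The median of the members was between -0.40 and -0.30 with a library left out. In sperm the number of members lower was 0 under library size alone, 1 without the filter on low counts and 0 at an adjusted p under 0.01, and between 0 and 5 with a library left out. Of all genes, 0.711%, 1.03%, 0% and 0.0046% to 5.49% were lower in these fits. The number higher was 1 by DESeq2 and between 0 and 4 with a library left out, and past 2-fold it was 0 to 1 higher and 0 to 3 lower. Of all genes, 14% were higher by DESeq2 and 0.0046% to 14% with a library left out. Past 2-fold with a library left out, 0.0046% to 11.2% of all genes were higher and 0.0046% to 2.07% lower. Fits without a library test fewer samples; otherwise the cause was not tested. With a library left out the sign turned for 12 tested members in testes and 15 in sperm, of which 0 had passed. Among the genes chosen by the naming rule these were Snrnp35 in sperm (-0.35 to 0.12 with a library left out, above 0 at 0.09 without WT replicate 1 and at 0.12 without Xap5l KO replicate 3, against -0.14), U2af1l4 in sperm (-0.047 to 0.18, below 0 without WT replicate 2 or 3 or Xap5l KO replicate 1, against 0.04) and Lsmem2 in testes (-0.52 to 0.71, the latter without WT replicate 1, and 0.25 with the block, against -0.05). The labels do not say whether replicate numbers pair the samples. Deviations of libraries with the same number correlated at 0.149, -0.023 and -0.081 in sperm and 0.013, -0.014 and -0.008 in testes. Those with different numbers correlated at -0.138 to 0.178 in sperm and -0.033 to 0.044 in testes. With so few libraries these values cannot settle whether the samples were paired. A replicate block gave 46 members lower in testes and 1 in sperm, against 26.2% and 0.917% of all genes. Genes with few reads, such as Srsf12 in sperm, did not reach the filter.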
